A study of Mus musculus with 18 samples.

Results

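The genes of the chemokine system were examined in the open chromatin of liver macrophages (LMs). All protein-coding genes of the mm9 annotation on chromosomes 1 to 19 were taken whose symbol is Ccl, Cxcl, Ccr, or Cxcr followed by a number, together with *Cx3cl1* and *Cx3cr1*. The rule found 54 of 21418 protein-coding genes, of which 36 encode ligands (23 CC, 12 CXC, and 1 CX3C) and 18 encode receptors (11 CC, 6 CXC, and 1 CX3C). An open region was assigned to a gene when its midpoint lay in the gene body or within 5 kb of either end. In this way 89 of the 69499 deposited regions were assigned, and because a single region served both *Ccl9* and *Ccl6* there were 90 assignments. The study isolated LMs from male C57BL/6J mice, all kept on a high-fat, high-sucrose diet (HFHSD) for 4 weeks, and profiled 50000 cells per reaction by fast-ATAC-Seq. In this assay the Tn5 transposase cuts accessible DNA and tags it for sequencing. The 18 libraries fall into 6 groups of 3, from control mice, mice without REV-ERBα and REV-ERBβ in hepatocytes (*Reverb*-hDKO), and mice that also lacked SCAP there (*Reverb/Scap*-hTKO), each collected at ZT10 and ZT22, where ZT counts the hours from lights on. The floxed alleles were deleted in adult mice by an adeno-associated virus carrying CRE under the hepatocyte-specific TBG promoter (AAV-TBG-CRE), controls received AAV-TBG-GFP, and the LMs themselves were not the target of the deletion. The deposited positions were joined over all 18 libraries and carry no value for any library, so the depth is unknown, and nothing below compares genotypes, times, or replicates. Being open here means only that a position is in the joined list, and intervals, all 95% Wilson intervals over genes or regions, cover counting error only.

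Chemokines are small secreted proteins that guide leukocytes along concentration gradients, and they are grouped by the spacing of the first cysteines into CC, CXC, and CX3C families. They act through G protein–coupled receptors on the surface of the migrating cell, many of which bind several ligands. In the liver, resident Kupffer cells and other cells release chemokines on injury or overnutrition, and monocytes that carry CCR2 are drawn in by CCL2 and become macrophages. Many inflammatory chemokine genes stand in clusters that arose by duplication and are induced by NF-κB, AP-1, or interferon signaling.

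The sequences that follow show the open DNA just before the transcription start of 5 ligand genes of the chromosome 5 and chromosome 11 clusters, and the distal open DNA of a further ligand and 2 receptors. They are printed 5′ to 3′ on the strand of the gene from NCBIM37, the assembly behind mm9, and bases in annotated untranslated regions (UTRs) are left out. Capitals mark the letters of searched motifs on either strand, namely AP-1 (TGANTCA), PU.1 (GAGGAAG), the interferon-stimulated response element (ISRE, GAAANNGAA), C/EBP (TTGCNNAA), and the consensus of the κB site. PU.1 and ISRE letters can overlap each other, as can shifted matches of the κB consensus. The start regions are from *Cxcl1* (ENSMUSG00000029380.10, chr5:91320116-91320266, plus strand), *Cxcl10* (ENSMUSG00000034855.7, chr5:92777916-92778138, minus strand), *Ccl2* (ENSMUSG00000035385.5, chr11:81848938-81849072, plus strand), *Ccl3* (ENSMUSG00000000982.5, chr11:83462858-83462962, minus strand), and *Ccl4* (ENSMUSG00000018930.3, chr11:83475884-83476037, plus strand).

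Cxcl1: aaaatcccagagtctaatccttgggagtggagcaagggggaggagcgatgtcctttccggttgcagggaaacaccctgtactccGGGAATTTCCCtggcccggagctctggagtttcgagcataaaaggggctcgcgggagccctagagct

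Cxcl10: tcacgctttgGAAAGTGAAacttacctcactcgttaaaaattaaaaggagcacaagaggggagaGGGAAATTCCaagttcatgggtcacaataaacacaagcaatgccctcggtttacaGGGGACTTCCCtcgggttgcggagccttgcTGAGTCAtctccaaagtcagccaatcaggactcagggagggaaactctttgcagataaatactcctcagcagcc

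Ccl2: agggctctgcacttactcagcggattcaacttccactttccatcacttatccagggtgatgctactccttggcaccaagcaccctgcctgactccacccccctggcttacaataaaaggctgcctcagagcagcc

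Ccl3: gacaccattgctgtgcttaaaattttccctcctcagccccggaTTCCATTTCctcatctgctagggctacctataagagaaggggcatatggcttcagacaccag

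Ccl4: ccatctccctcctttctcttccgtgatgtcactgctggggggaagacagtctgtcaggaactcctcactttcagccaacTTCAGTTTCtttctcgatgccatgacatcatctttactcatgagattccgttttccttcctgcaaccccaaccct

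The *Cxcl1* stretch holds 2 κB matches shifted by a single base, 1 on each strand, and the *Cxcl10* stretch holds 1 ISRE, 1 AP-1, and 3 κB matches, of which a pair is shifted in the same way. *Ccl3* and *Ccl4*, neighbors that point away from each other on the chromosome, each hold an ISRE match on the opposite strand (TTCNNTTTC). The *Ccl2* stretch holds none of these letters outside its UTR, although the 200 bp around the midpoint of its region hold a PU.1 match. The distal regions are from *Ccl5* (ENSMUSG00000035042.2, chr11:83348246-83348490, minus strand, upstream), *Cx3cr1* (ENSMUSG00000052336.5, chr9:119964021-119964171, minus strand, in an intron), and *Cxcr6* (ENSMUSG00000048521.7, chr9:123724720-123724870, plus strand, past the 3′ end).

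Ccl5: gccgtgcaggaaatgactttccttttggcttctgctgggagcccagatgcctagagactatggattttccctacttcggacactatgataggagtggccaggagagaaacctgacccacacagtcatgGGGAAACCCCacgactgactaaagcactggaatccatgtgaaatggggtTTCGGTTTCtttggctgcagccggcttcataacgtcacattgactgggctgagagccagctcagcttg

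Cx3cr1: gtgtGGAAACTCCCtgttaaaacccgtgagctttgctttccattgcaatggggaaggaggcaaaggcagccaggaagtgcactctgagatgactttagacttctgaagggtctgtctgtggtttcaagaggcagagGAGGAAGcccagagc

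Cxcr6: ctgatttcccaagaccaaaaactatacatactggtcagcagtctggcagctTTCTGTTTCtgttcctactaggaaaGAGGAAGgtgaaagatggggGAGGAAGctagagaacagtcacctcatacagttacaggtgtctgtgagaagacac

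*Ccl5* had no open region near its start, and its nearest region, shown above, holds an ISRE and a κB match at 4226 bp from it. The intronic *Cx3cr1* region holds a PU.1 and a κB match, and the *Cxcr6* region holds 2 PU.1 matches and an ISRE match. A match describes letters, and binding of the factors was not measured.

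Of the 54 genes, 35 had at least 1 open region (64.8%, 51.5 to 76.2), beside 72% of all protein-coding genes on the same chromosomes and 50.8% of those up to 10 kb long. Ligand and receptor genes were close to each other in this, with 23 of 36 ligands (63.9%, 47.6 to 77.5) and 12 of 18 receptors (66.7%, 43.8 to 83.7). An open start, meaning a region that overlapped the 1 kb on either side of an annotated transcript start of the gene, was found for 21 of the 54 genes (38.9%, 27.04 to 52.2), beside 58% of all protein-coding genes and 37.8% of those up to 10 kb. Ligands had an open start in 16 of 36 cases (44.4%, 29.5 to 60.4) and receptors in 5 of 18 (27.8%, 12.5 to 50.9), and these intervals overlap over most of their width. Chemokine genes are short, with a median of 3114.5 bp for ligands and 8484.5 bp for receptors against 15535 bp for all protein-coding genes, and their share of open starts was near that of genes of like length. Among genes up to 10 kb the shares were 13 of 31 ligands (41.9%) and 3 of 10 receptors (30%).

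**Figure D1:**
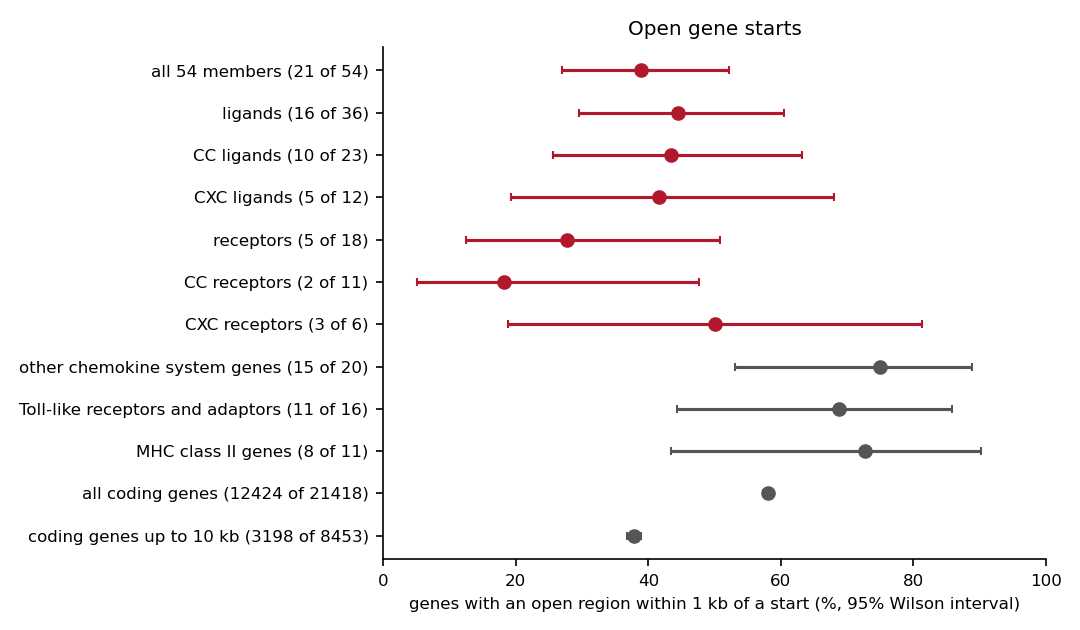
Share of genes with an open region within 1 kb of an annotated start, in percent on the horizontal axis, for the chemokine and receptor genes and their classes (red) and for comparison lists (gray). Points are shares and bars are 95% Wilson intervals. The 54 genes (38.9%) sit beside the protein-coding genes up to 10 kb (37.8%) and below all protein-coding genes (58%), and CC receptors (2 of 11) have the lowest share plotted.

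By family, open starts were found in 10 of 23 CC ligands, 5 of 12 CXC ligands, 2 of 11 CC receptors, and 3 of 6 CXC receptors, together with the CX3C ligand but not the CX3C receptor. Toll-like receptors and their adaptors, which sense microbial products, had open starts in 11 of 16 genes (68.8%, 44.4 to 85.8). Of those without, *Tlr7*, *Tlr8*, and *Tlr13* lie on the X chromosome, outside the chromosomes of the rule. Genes of MHC class II antigen presentation had open starts in 8 of 11 (72.7%, 43.4 to 90.2). The other genes of the chemokine pathway, a hand-written list of G proteins, arrestins, kinases, regulators, atypical receptors, and chemokines with other names, had open starts in 15 of 20 (75%, 53.1 to 88.8). The share of all protein-coding genes, 58%, lay inside the intervals of all these lists. Their genes were also longer, with medians of 10536, 8799, and 13162.5 bp, against 3114.5 bp for chemokine ligands and 8484.5 bp for chemokine receptors. The MHC class II genes were thus close in length to the chemokine receptors, of which 27.8% had an open start. Whether length accounts for the shares was not tested. Markers of several liver cell types were in the joined list, and starts were open for 7 of 10 macrophage markers (all but *Vsig4*, *Csf1r*, and *Marco*), 9 of 10 hepatocyte markers, 8 of 10 endothelial markers, 3 of 10 stellate cell markers, 2 of 10 markers of T, B, NK cells, and neutrophils, and 2 of 10 neuron and muscle genes. *Vsig4* also lies on the X chromosome. From which cells the chemokine gene regions came was not tested.

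The number of regions varied widely among the 54 genes. There were 19 genes with 0 regions, 8 with 1, 14 with 2, and 13 with 3 or more, up to 6 for *Cxcl12* and *Cx3cr1*. Per length, ligands had a median of 0.797 regions per 10 kb of gene and flanks (SD 0.951 over genes) and receptors a median of 0.668 (SD 1.03). All protein-coding genes had a median of 0.514 (SD 0.861), and those up to 10 kb had 0.518 (SD 1.095). Pooled over genes, the densities were 0.825 for ligands and 0.780 for receptors. These lay above the pooled 0.501 of all protein-coding genes and below the 0.901 of those up to 10 kb. The order of the ligand and receptor medians depended on the flank. With a flank of 10 kb the medians were 0.778 for ligands and 0.872 for receptors, and without a flank they were 0 and 0.774. *Cxcl1* had the highest density (3.37 per 10 kb), followed by *Cxcr1* (3.11), *Cxcl12* (2.63), and *Cxcr6* (2.62).

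**Figure D2:**
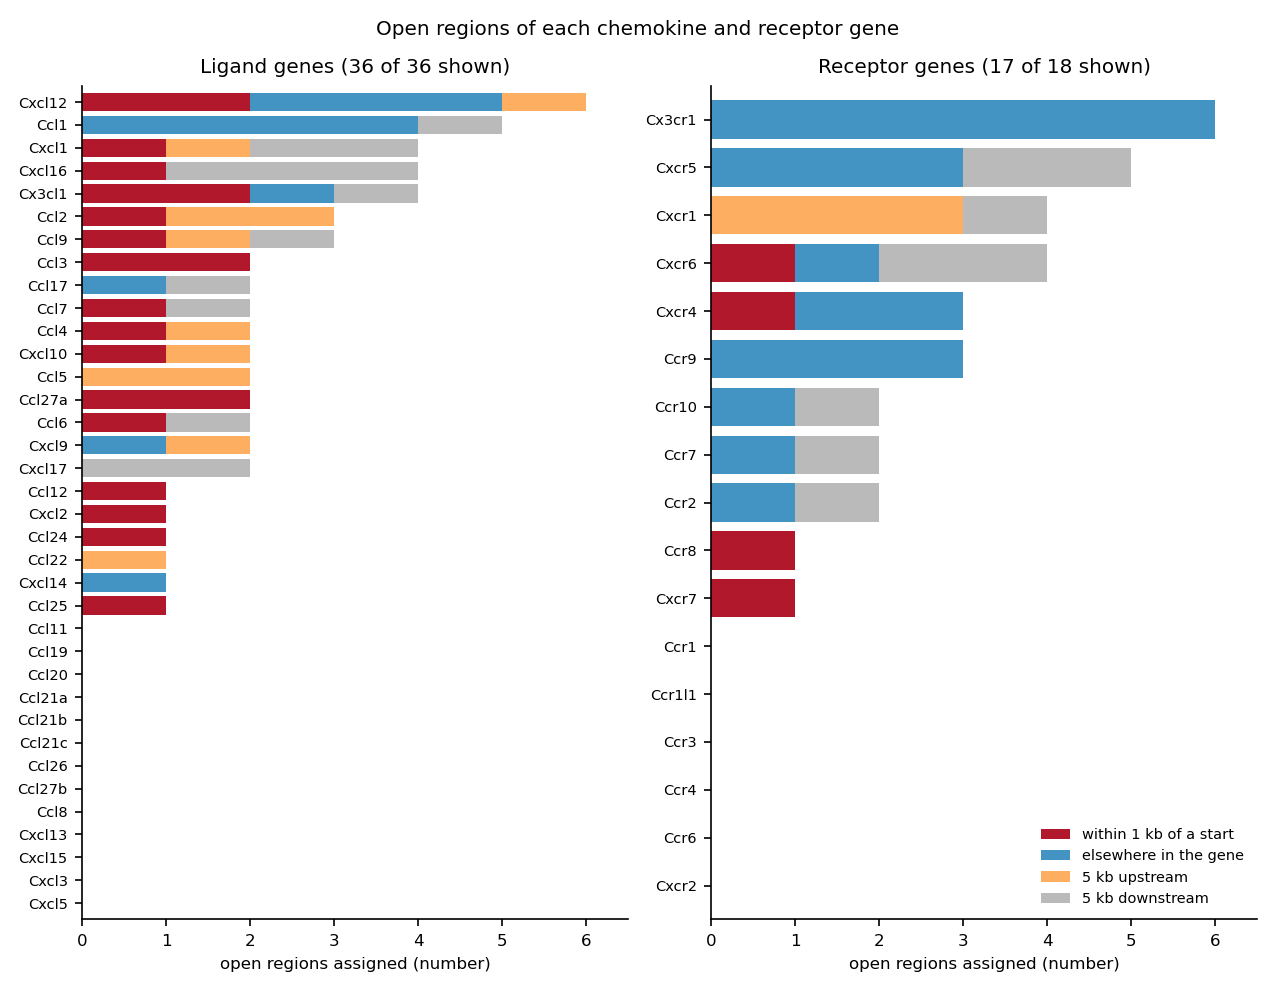
Number of open regions assigned to each of the 36 ligand genes (left) and 17 of the 18 receptor genes (right), on the horizontal axis. Colors split the regions into those within 1 kb of a start, elsewhere in the gene, and in the 5 kb upstream or downstream. Ligand bars are often red and orange, while the longest receptor bars, *Cx3cr1* with 6 regions and *Cxcr5* with 5, have no red.

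Among the inflammatory CXC ligands, *Cxcl1* and *Cxcl2*, which attract neutrophils, had open starts, and their relatives *Cxcl3*, *Cxcl5*, and *Cxcl15* had no region. *Cxcl1* had 4 regions, at -2380, -59, 3219, and 6400 bp from its 5′ end, so that it was flanked on both sides. *Cxcl2* had a single region at -164 bp. The interferon-induced *Cxcl10* had a start region 238 bp wide at -104.5 bp and another at -4966 bp, just inside the 5 kb limit. *Cxcl9*, a related ligand of the same receptor, had no open start, with 1 region in its 3′ UTR and 1 at -4502 bp that lay 665 bp from a start of *Art3*. *Cxcl13*, which guides B cells to follicles, had no region within 18532 bp of its start.

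*Cxcl12*, a constitutive ligand that retains leukocytes and progenitors in tissues, had the most regions of the ligands. They lay at -1447, -105, 73.5, 1637.5, 4083, and 5529 bp, and thus covered the promoter and the first part of the gene but not the rest of the gene or its 3′ end. *Cxcl16*, a membrane-bound ligand that also takes up oxidized lipoproteins, had a start region of 278 bp that also touched a start of *Zmynd15*, and its 3 downstream regions lay beside *Med11*, of which 2 were within 1 kb of a *Med11* start. *Cxcl14* had an open intron at 3297 bp and no open start. Both regions of *Cxcl17* lay past its 3′ end within 1 kb of a start of *Lipe*, the gene of hormone-sensitive lipase, and none was near its own start. *Cx3cl1*, the membrane-tethered ligand fractalkine, had regions at -279, 266, 6722.5, and 13914 bp, of which the first pair framed its start.

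The monocyte attractants *Ccl2*, *Ccl7*, and *Ccl12*, which act on CCR2, all had an open start. The start region of *Ccl2*, 302 bp, was the widest of all 89 regions, and 2 more lay upstream of it at -2664 and -3300 bp. *Ccl7* had regions at 38 and 2579 bp and *Ccl12* a single region at -151 bp. *Ccl8*, next to *Ccl12*, had no region, and the nearest one lay 13416 bp from its start. Of the eotaxins, which attract eosinophils through CCR3, *Ccl24* had a region at -147 bp, and *Ccl11* and *Ccl26* had none.

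*Ccl3* and *Ccl4*, inflammatory ligands that attract monocytes and T cells, had open starts, with regions at -30 and -277 bp for *Ccl3* and at -125.5 and -4924 bp for *Ccl4*. *Ccl5*, which acts on the same kinds of cells, had only its upstream regions, at -4348 and -4732 bp. *Ccl6* and *Ccl9*, rodent ligands of CCR1, both had a start region of 151 bp, at -4 and 42 bp, and shared the region of 151 bp between them. *Ccl1* had 5 regions and none near a start, along an annotated gene of 129034 bp that includes a long noncoding transcript, and its density of 0.360 per 10 kb was below the median of the ligands.

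Ligands of lymphoid tissue and of skin or gut homing included genes with and without regions. *Ccl19* and the *Ccl21* copies (*Ccl21a*, *Ccl21b*, *Ccl21c*), which draw cells into lymph nodes through CCR7, had none, nor did *Ccl27b* or *Ccl20*, the ligand of CCR6. *Ccl27a* had regions over its first exons, at 14.5 and 483.5 bp. *Ccl25* had 1 region at -11 bp, which lay 13 bp from a start of *Elavl1* on the other strand, so that an open *Ccl25* start and an open *Elavl1* start cannot be told apart. *Ccl17* and *Ccl22*, ligands of CCR4, had no open start. *Ccl17* had a region at its 3′ end and another at 2620 bp, and *Ccl22* had 1 at -4760 bp.

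Among the receptors described by name, open starts were found for *Cxcr4* and *Cxcr7*, which both bind CXCL12, for *Cxcr6*, the receptor of CXCL16, and for *Ccr8*, the receptor of CCL1. *Cxcr4* had a start region of 275 bp at -109 bp and a pair of regions in its intron at 1170 and 1341 bp, 11 bp apart. *Cxcr7*, a scavenging receptor, had 1 region at 66 bp. *Cxcr6* had regions at 58, 2320, 7917, and 9200 bp, and its widest, 251 bp, was past the 3′ end. *Ccr8* had 1 region at 8 bp.

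For the other receptors, regions lay away from the start or were not found. *Cx3cr1*, a receptor of patrolling monocytes and some tissue macrophages, had 6 regions, 3 in introns at 9473, 11839, and 13304 bp and 3 in the 3′ UTR at 17682, 18659.5, and 19557.5 bp. The closest edge of any region was 5059 bp from its start, on the upstream side, and the midpoint of that region lay 5147.5 bp away, just outside the assignment limit. *Cxcr5*, the B cell follicle receptor, had 5 regions, 3 in introns and 2 downstream, with the nearest 4154 bp from the start. *Cxcr1* had 3 upstream regions at -1516, -2228.5, and -3662 bp and 1 downstream, while *Cxcr2*, its neighbor and the main receptor of CXCL1 and CXCL2 on neutrophils, had none. *Ccr2*, the receptor that marks inflammatory monocytes, had 1 region in the 3′ UTR and 1 downstream, 10850 and 13040 bp from its 5′ end. *Ccr7* had 1 region in its 3′ UTR and 1 downstream, and *Ccr10* had 1 in a coding exon and 1 that lay 75 bp from a start of *Plekhh3*. *Ccr9* had 3 regions in a gene model of 103533 bp, of which 1 touched a start of *Lztfl1*. *Ccr1*, *Ccr1l1*, *Ccr3*, *Ccr4*, and *Ccr6* had no region.

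**Figure D3:**
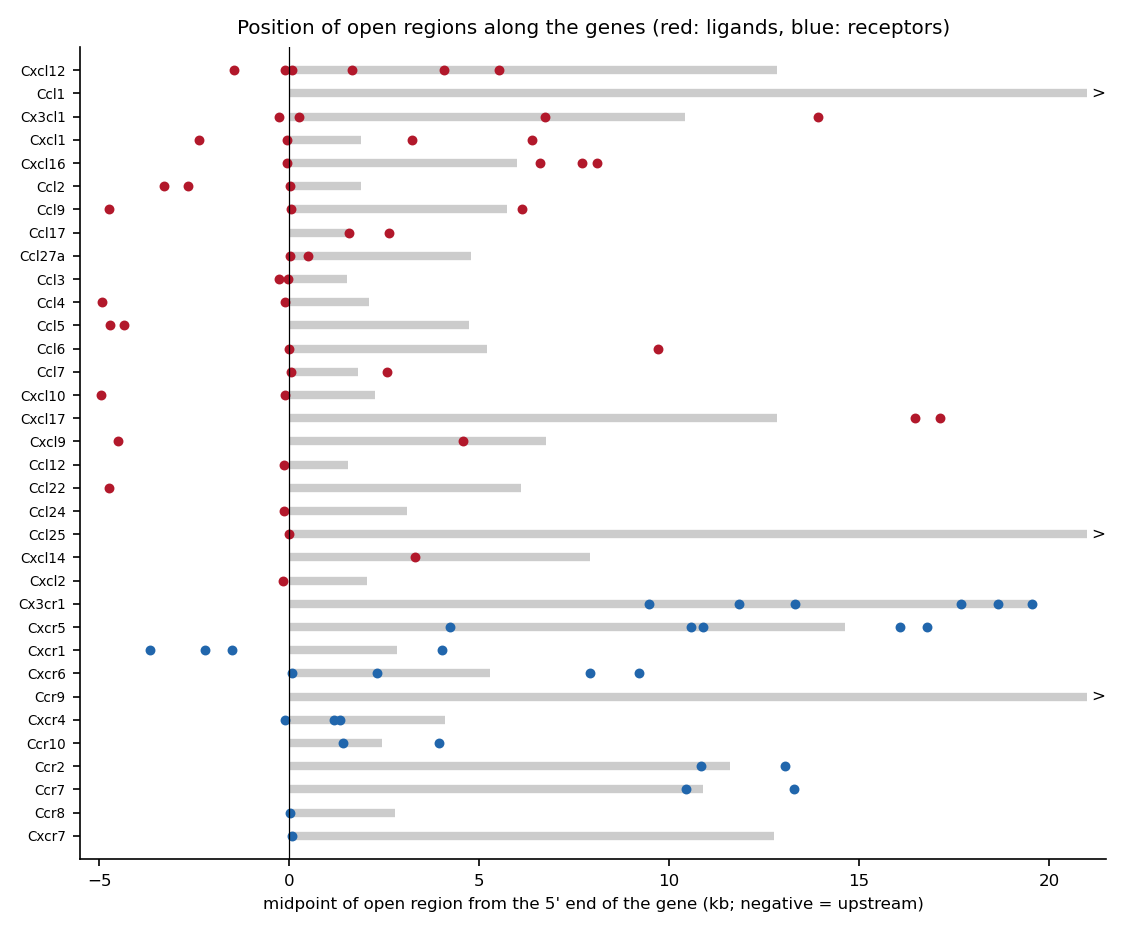
Midpoints of open regions (points) relative to the 5′ end of the gene, in kb along the horizontal axis, for 34 of the 35 genes with at least 1 region; gray bars are gene bodies, red points are ligands and blue points are receptors. Models longer than 21 kb are marked by an arrowhead, and the 5 regions of *Ccl1* and 3 of *Ccr9*, which lie beyond the axis, are not drawn. Ligand points gather at the start, and the 6 *Cx3cr1* points lie in the far part of the gene.

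Ligand and receptor regions differed in where they lay. Within 1 kb of a start were 20 of 55 ligand assignments (36.4%, 24.9 to 49.6) and 6 of 35 receptor assignments (17.1%, 8.10 to 32.7). In the gene body were 18 of 55 ligand assignments (32.7%, 21.8 to 45.9) and 23 of 35 receptor assignments (65.7%, 49.2 to 79.2), and these intervals do not overlap. Receptor bodies are longer, and regions of 1 gene are not independent, so no test was run on this difference. Upstream flanks held 24 ligand and 4 receptor assignments, and downstream flanks held 13 and 8. Of the 26 regions near a start, 25 had their midpoint within 300 bp of it. The midpoint was upstream of the nearest start for 15 of 20 ligand regions, with a median position of -63.25 bp, and for 2 of 6 receptor regions.

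Regions of the chemokine genes were near all regions in width. Their mean width was 175 ± 36.4 bp (SD over 89 regions), and 47 of them (52.8%, 42.5 to 62.9) were exactly 151 bp, the smallest width among them, against 46.6% of all regions on chromosomes 1 to 19, whose mean was 186 ± 48.5 bp. Near a start the widths differed more. Of the 26 start regions of these genes, 53.8% (35.5 to 71.2) were 151 bp wide, against 29.5% of the 19606 start regions of all protein-coding genes. These sets also differed in CpG content (below), and widths at like CpG content were not compared. Only *Ccl2* (302 bp), *Cxcl16* (278 bp), *Cxcr4* (275 bp), and *Cxcl10* (238 bp) had a start region of at least 200 bp.

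Most chemokine promoters are poor in CpG. The ratio of observed to expected CpG in the 250 bp before to 50 bp after the 5′ end had a median of 0.297 in ligands with an open start and 0.208 in those without, and of 0.210 and 0.188 in receptors. Over all protein-coding genes these medians were 0.745 and 0.228, so the open starts of chemokine genes had far fewer CpGs than open starts usually had. Of the 46 genes with a ratio under 0.5, 15 had an open start (32.6%, 20.9 to 47.0), beside 29.4% of all protein-coding genes under this ratio. Of the 8 genes at or above 0.5, 6 had an open start (*Cxcl10*, *Cxcl12*, *Cxcl16*, *Ccl25*, *Cx3cl1*, and *Cxcr4*), and *Cxcl14* and *Ccr9* did not, beside 83.3% of all such genes.

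**Figure D4:**
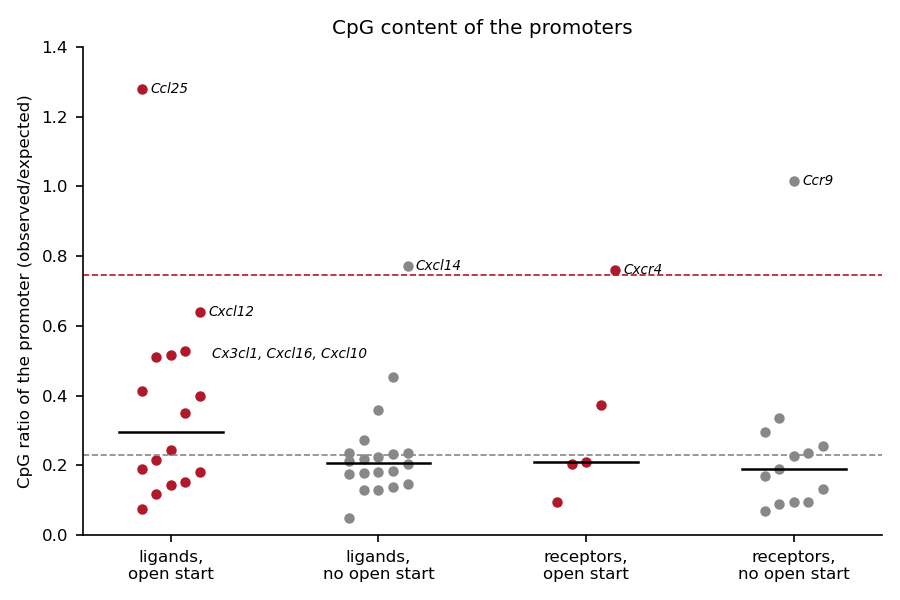
CpG ratio (observed to expected) of the promoter on the vertical axis for ligand and receptor genes with an open start (red points) and without (gray points). Black bars are group medians, and the dashed lines are the medians of all protein-coding genes with (red, 0.745) and without (gray, 0.228) an open start. Most red points lie below the red line, and the genes at 0.5 or higher are named.

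Among the motifs, 9 of the 89 regions held a κB match in the 200 bp around the midpoint (10.1%, 5.41 to 18.1), beside 5.54% of all regions on chromosomes 1 to 19. The 9 comprised 8 ligand regions, at *Cxcl1*, *Cxcl10*, *Cxcl12*, *Cxcl16*, *Ccl5* (2), *Ccl9*, and *Ccl17*, and the intronic *Cx3cr1* region printed above. The share of all regions lay inside the interval for the 89 regions. It lay below the interval for ligand regions alone (14.8%, 7.70 to 26.6) and inside that for receptor regions (2.86%, 0.506 to 14.5). The 8 ligand regions are not independent, since 2 are neighbors at *Ccl5*, and the *Cxcl16* region held a start of *Med11*. At *Ccl9* and *Ccl17* the match lay outside the region as deposited. Several motifs and classes were compared, and no test was run. Shares of the other motifs were near those of all regions, with 10.1% and 9.06% for AP-1, 12.4% and 12.6% for PU.1, and 5.62% and 5.68% for the ISRE. For C/EBP the shares were 7.87% and 11.1%, the latter inside the interval of the former (3.86 to 15.4). In the promoters themselves a κB match was present in 8 of 36 ligands (22.2%, 11.7 to 38.1), 3 of 18 receptors (16.7%, 5.84 to 39.2), and 8.99% of all protein-coding genes. For C/EBP the shares of ligand and of all promoters were 19.4% and 10.3%, and for the ISRE 16.7% and 8.86%, and both shares of all genes lay inside the ligand intervals. The κB match was found in 4 of 16 ligand promoters with an open start (*Cxcl1*, *Cxcl2*, *Cxcl10*, and *Ccl9*) and in 4 of 20 without (*Ccl20*, *Cxcl5*, *Cxcl3*, and *Ccl5*). PU.1 letters were in 10 of 36 ligand promoters (27.8%, 15.8 to 44.0) beside 13.5% of all, and 7 of these 10 had no open start. Among these 7 are *Ccl21a*, *Ccl21b*, and *Ccl21c*, near-identical copies that are not independent and that also hold C/EBP letters.

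The chromosome 11 cluster, with genes joined across gaps of up to 2 Mb, runs from *Ccl2* to *Ccl4* over 1639.1 kb and holds 11 CC ligands, of which 7 had an open start and 9 had a region. The span held 94 open regions, or 5.74 per 100 kb, against 4.05 over the whole chromosome, 1.2 in the 1 Mb below it, and 3.7 in the 1 Mb above it. Only 21 of the 94 lay in the windows of the chemokine genes, where the density was 7.84 per 100 kb. The chromosome 5 cluster runs from *Cxcl5* to *Cxcl10* over 1599.6 kb with 7 CXC ligands, of which 3 had an open start and 4 had a region. Its 53 regions, or 3.31 per 100 kb, compared with 2.87 over the chromosome, 3.6 below, and 7.3 above. The windows of its genes held 9 regions at 9.76 per 100 kb, and the DNA between them held 2.92 per 100 kb, against 5.32 in the chromosome 11 cluster. Counted per 10 kb, the pooled density in such windows was 0.501 for all protein-coding genes and 0.901 for those up to 10 kb. The windows of the cluster genes were near the value of short genes, so their density is not shown to be particular to chemokine genes.

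Within the clusters the open regions were uneven. The proximal piece of the chromosome 11 cluster, *Ccl2* to *Ccl1*, had 11 regions in 280.1 kb (3.93 per 100 kb) and open starts in 3 of 6 genes, and its longest stretch without a region, 73.2 kb, began just past the *Ccl12* start region and held *Ccl8*. The distal piece, *Ccl5* to *Ccl4*, had 19 regions in 148.9 kb (12.8 per 100 kb) and open starts in 4 of 5 genes. Of these 19 regions, 9 lay between the gene windows, of which 5 were in the stretch from *Ccl5* to *Ccl9*, the widest of them 278 bp at chr11:83376097-83376374. On chromosome 5, the *Cxcl5* to *Cxcl2* piece had 10 regions in 156.6 kb (6.39 per 100 kb). A stretch of 99.9 kb without a region held *Cxcl3* and *Cxcl15*, and beyond it came 4 regions with midpoints 18646, 14163, 9364, and 6145 bp before the *Cxcl1* gene. The first of these runs over chr5:91301517-91301725. The only region on the *Cxcl5* side of the gap lay at the start of *Pf4*, the platelet factor 4 gene. The *Cxcl9* to *Cxcl10* piece had 4 regions in 37.6 kb.

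**Figure D5:**
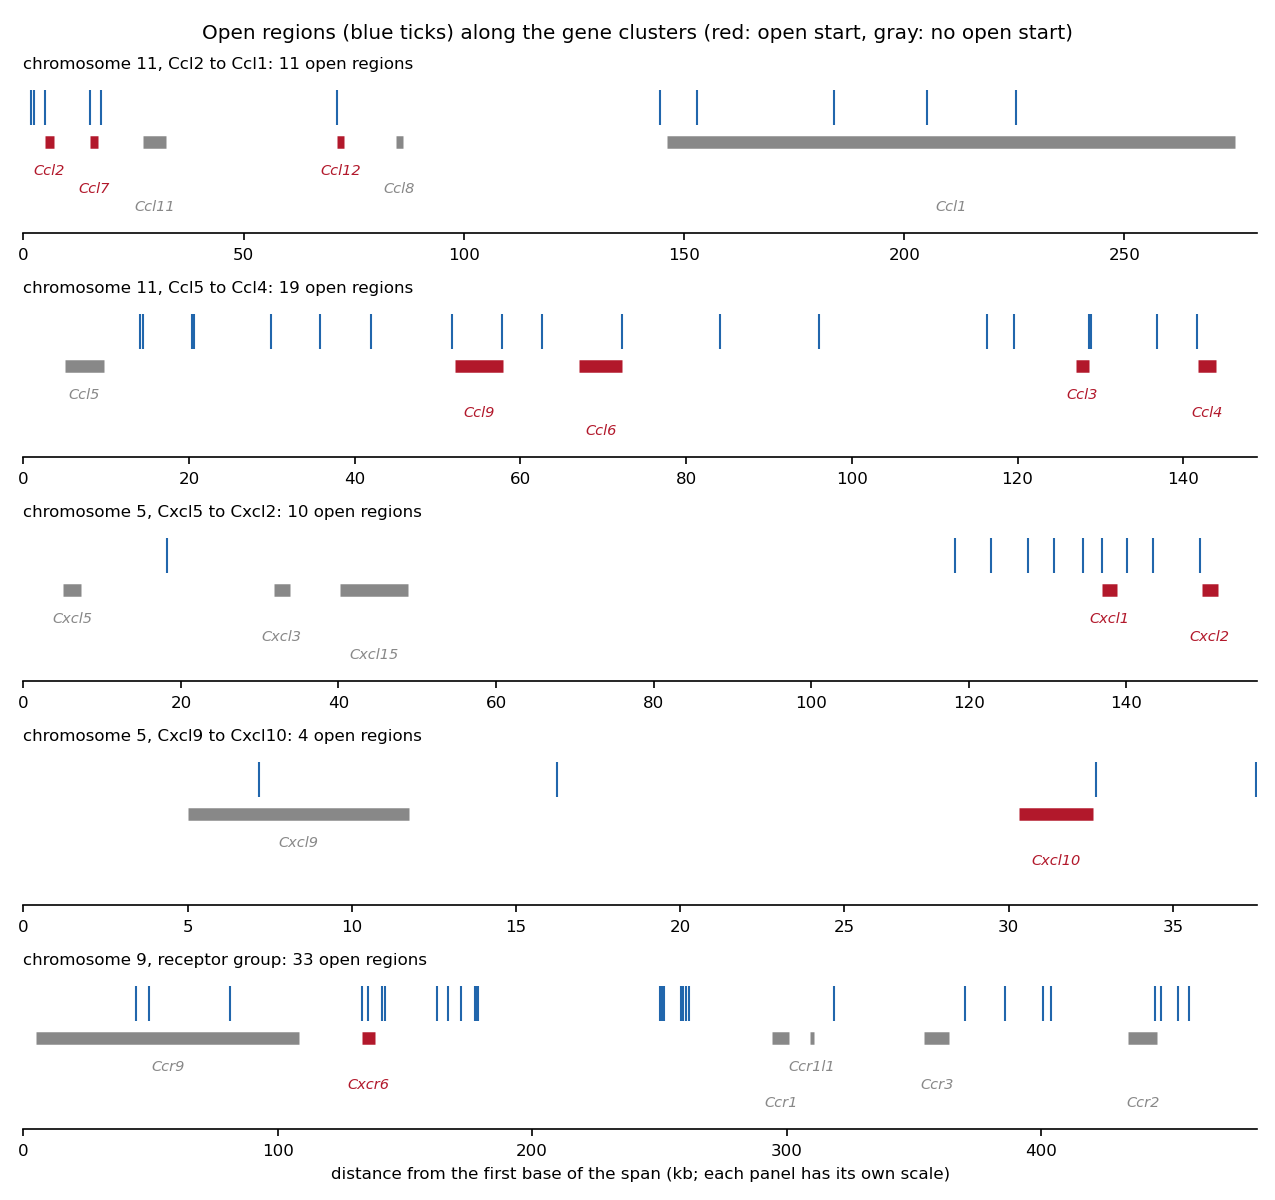
Open regions (blue ticks) and genes (bars, red with an open start and gray without) along the pieces of the chromosome 11 and chromosome 5 ligand clusters and the chromosome 9 receptor group; the horizontal axis is the distance in kb from the first base of each span, on a scale of its own in each panel. Ticks are dense from *Ccl5* to *Ccl4* (19 regions) and around *Cxcl1*, and absent over *Cxcl3* and *Cxcl15*.

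The receptor genes of chromosome 9 form a group of 484.9 kb that begins at *Ccr9*, near the end of the chromosome. It held 33 regions (6.81 per 100 kb, against 2.93 over the chromosome), but only 11 of them lay in the windows of its 7 receptor genes (4.77 per 100 kb) and 2 of these 7 had an open start, *Cxcr6* among them. Between the windows were 22 regions, of which 5 were within 1 kb of a start of *Fyco1* and 9 formed a group 39184.5 to 50549 bp from *Ccr1*. In this receptor group the density was thus lower at the genes than between them (8.65 per 100 kb), the reverse of the ligand clusters on chromosomes 5 and 11. These are values of 1 joined list, with no spread over libraries.

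Some of the genes without regions lie in DNA that is present more than once in the assembly. On chromosome 4, *Ccl21b*, *Ccl21c*, *Ccl27b*, *Ccl19*, and *Ccl21a* stand in sequence of which 99.3% to 100% of the 50-base words recur elsewhere in the assembly, and a stretch of 1071.3 kb that holds all 5 had no region. *Ccl27a* (50.6%), which had 2 regions, and *Ccr1* (25.1%) were the other genes above 20%. For the copied genes, closed DNA and reads that could not be placed at a single position cannot be told apart. The other 13 genes without a region were at or below 20%, and among the 47 genes at or below this limit 34 had a region (72.3%, 58.2 to 83.1).

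For 19 ligand and receptor pairs taken from textbook knowledge, the states of both starts were set side by side. Both were open for 3 pairs, *Cxcl12* with *Cxcr4* and with *Cxcr7*, and *Cxcl16* with *Cxcr6*. Only the ligand was open for 7 pairs, among them *Ccl2* and *Ccr2*, *Cx3cl1* and *Cx3cr1*, and *Cxcl1* or *Cxcl2* and *Cxcr2*. Only the receptor was open for *Ccl1* and *Ccr8*, and neither was open for 8 pairs, which included *Ccl20* and *Ccr6*, *Cxcl13* and *Cxcr5*, and both CCR4 ligands. Pairs share genes and are not independent. The list is not complete, since it lacks *Ccl7* and *Ccl12* with *Ccr2*, *Ccl6* and *Ccl9* with *Ccr1*, and *Ccl24* with *Ccr3*. The counts thus depend on the choice of pairs. Taken alone, 44.4% of ligands and 27.8% of receptors had an open start. The pairs with neither start open include *Ccl19* and *Ccl21a* with *Ccr7*, and for these copied ligand genes a closed start cannot be told from unplaced reads.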

How the data were processed

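Open chromatin of isolated LMs was measured by fast-ATAC-Seq in 18 libraries, grouped by genotype and zeitgeber time from their labels, with 3 replicates in each of 6 groups. The authors applied the Kundaje laboratory pipeline, trimmed adapters, used Bowtie for alignment to mm9, combined biological replicates after alignment, and then called peaks. HOMER is named for read counts. Neither the peak caller and threshold nor the joining of peaks is given in the sources used here. The deposited file holds positions only (chromosome, start, end), with no count, signal, score, or sample, so depth and replicate spread are unknown and no test over samples was run. Starts, deposited from 0, are given from 1. Since peaks were called on combined replicates, a region may come from some of the libraries alone.

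Genes came from GENCODE vM1 on NCBIM37 (mm9), and no region on chromosomes 1 to 19 exceeded the chromosome length there. Gene records with the same symbol were joined. Motifs were searched in the 200 bp around each midpoint and in promoters of 250 bp before to 50 bp after the 5′ end, read from NCBIM37. Every gene of the rule is in the counts, 1 receptor gene is not reported here by name or drawn in the plots by gene, and values are given for the 12 ligands and 10 receptors with most regions, the cluster genes, genes without a region or an open start, and the widest and narrowest regions. Genes and lists were chosen with earlier results of these data known. The steps were tested on simulated data. Python 3.11.15, NumPy 2.4.6, pandas 2.3.3, SciPy 1.17.1, and matplotlib 3.10.9 were used. Alternatives varied the flank, the start window, the region width, nearby starts of other genes, repeated sequence, and the cluster gap.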

Additional observations from a re-analysis of the deposited data

How the results depend on the processing

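Of 80 alternatives for 14 results, 69 stayed within the spread or interval of the value reported, or within 1.5 times of it for counts, and 11 moved. No cause of these moves was tested beyond what each setting leaves out. For the densities the SD over genes (0.951 for ligands, 1.03 for receptors) exceeded the median (0.797 and 0.668). A median of 0 was therefore counted among the 69, and staying within the spread says little about the densities. With regions of at least 200 bp, 24.1% of the genes had a region, open starts fell to 8.33% of ligands (3 of 36) and 5.56% of receptors (1 of 18), both median densities were 0, and the chromosome 11 and chromosome 5 clusters held 24 regions each. Without a flank, 38.9% of the genes had a region and 0 of 41 regions held an ISRE match. With gaps of up to 500 kb, the pieces with the most genes of the chromosome 11 and chromosome 5 clusters held 11 and 10 regions, and the windows of the genes alone held 21 and 9. Widening the start window to 2500 bp gave open starts for 47.2% of ligands and 38.9% of receptors, and leaving out regions near starts of other genes gave 38.9% of ligands and 27.8% of receptors. Alternatives added after seeing the data were leaving out gene models over 30 kb, run for the share of genes with a region and the densities, and counting starts of protein-coding transcripts only, run for the open starts, and neither moved these values beyond their spread or interval.

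No paired analysis was possible because the deposited list has no value per library. For the same reason no replicate was left out. With positions only, weak and strong regions count alike, and the threshold under which a gene has no region is not known.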

Other observations

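Genes of the chemokine pathway outside the symbol rule gave the following values. *Pf4* and *Ppbp*, chemokine genes of platelets that stand in the chromosome 5 cluster, shared 1 region, which lay at the start of *Pf4* and in the downstream flank of *Ppbp*. *Xcr1*, the receptor of cross-presenting dendritic cells, had 5 regions and no open start, and its ligand gene *Xcl1* had 0. *Ccbp2*, which encodes an atypical receptor that removes inflammatory CC chemokines, had 6 regions, 2.64 per 10 kb, and an open start. *Ccrl2* had 3 regions and an open start, while *Darc* had 0 regions and *Ccrl1* had 1 that was not at a start. Of the genes that carry the signal inside the cell, *Gnai2*, the G protein subunit through which chemokine receptors act, had 8 regions (2.56 per 10 kb), *Rac2* had 5 (2.12 per 10 kb), and *Ptk2b* had 18 (1.31 per 10 kb), each with an open start. *Cxcl11*, annotated as a noncoding transcript, had 1 region and no open start, and *Cxcr3*, the receptor of CXCL9 and CXCL10 on the X chromosome, had 0.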
